A study of Mus musculus with 20 samples.

Results

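The methylome described here is that of hematopoietic stem cells (HSCs) from mice that received no 5-fluorouracil (5FU), the 4 samples labelled 0x of a series of 20. The labels number them 01, 02, 13 and 14, and the unit of description is the 100 bp bin, whose value is the percentage of its CpG calls that were methylated. Of 1201951 deposited bins, 276530 (23.0%) were usable, meaning that the 4 values varied and that no value other than 0 or 100 occurred more than once. Bins at 0 in all 4 samples (116084) or at 100 in all 4 samples (643056) were counted apart, since the number of samples measured in them is unknown. The remaining 166281 bins (13.8%) held a repeated value between 0 and 100 and were left out.

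The animals were C57BL/6 mice, per the labels, and untreated controls for groups given 2, 4 or 10 cycles of 5FU, which are not compared here. The study's methods describe female mice, 3 months old at the start of the experiment, and HSCs sorted from bone marrow as lineage-negative, cKit+, Sca1+, CD34-, Flk2- and CD150+ cells, whereas the labels give the tissue as blood. The study took the cells for methylation after the end of treatment and describes its untreated controls as early middle-aged by the endpoint. The starting age is therefore not the age at which the cells were taken. Methylation was measured by reduced representation bisulfite sequencing (RRBS), which sequences fragments cut at CCGG by MspI and therefore favours CpG-rich DNA. No label says that the samples were separate mice, so the spread between them may be technical, and neither reads nor coverage were given, so no value's depth can be given.

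DNA methylation in mammals sits on the cytosine of CpG pairs, is copied at cell division, and covers most of the genome except CpG islands, stretches in which CpGs are dense and which often hold transcription starts. In HSCs it is set by the DNMT enzymes and removed through the TET enzymes, and both classes of enzyme are known for their role in stem cell self-renewal and in blood cancers. Imprinted regions carry methylation on only the maternal or the paternal copy. Germline genes are silenced by methylation in body tissues, and in female cells the island promoters of the inactive X chromosome are methylated.

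The bin closest to a transcription start with usable values is shown for 8 genes, to let the CpG content of differently methylated promoters be seen. All are read 5′ to 3′ on the plus strand of GRCm38 (the assembly of mm10), with the CpGs in capitals. The first pair are bins of low methylation in a myeloid regulator and a stem cell receptor, the third a lymphoid kinase, the next pair imprinted genes, the next pair germline genes and the last an X-linked gene.
Cebpa: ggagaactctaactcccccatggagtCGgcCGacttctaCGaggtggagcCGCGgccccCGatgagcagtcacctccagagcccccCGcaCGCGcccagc
Kit: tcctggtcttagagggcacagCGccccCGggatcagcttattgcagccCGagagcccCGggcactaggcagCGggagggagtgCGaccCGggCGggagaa
Zap70: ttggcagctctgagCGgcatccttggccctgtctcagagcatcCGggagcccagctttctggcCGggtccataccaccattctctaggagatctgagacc
Snrpn: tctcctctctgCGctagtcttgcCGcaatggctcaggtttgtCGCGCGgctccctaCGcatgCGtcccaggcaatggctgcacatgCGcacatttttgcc
Peg3: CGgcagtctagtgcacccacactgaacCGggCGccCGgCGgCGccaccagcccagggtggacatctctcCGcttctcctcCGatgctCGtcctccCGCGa
Dazl: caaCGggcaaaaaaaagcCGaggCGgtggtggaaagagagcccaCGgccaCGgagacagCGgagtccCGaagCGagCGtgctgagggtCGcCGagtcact
Ddx4: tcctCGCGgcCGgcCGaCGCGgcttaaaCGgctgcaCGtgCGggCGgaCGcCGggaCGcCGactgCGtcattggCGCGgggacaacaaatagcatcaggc
Zfx: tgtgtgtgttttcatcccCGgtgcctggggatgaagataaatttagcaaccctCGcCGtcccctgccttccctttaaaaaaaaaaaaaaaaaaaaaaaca

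The Cebpa bin (chr7:35119400-35119499, coding exon) held 9 CpGs and was methylated at 3.93%, 1.68%, 0% and 0% in samples 01, 02, 13 and 14. The Kit bin (chr5:75574800-75574899, promoter) held 8 CpGs and stood at 0% in 3 samples and at 14.8% in sample 14. The Ddx4 bin (chr13:112652300-112652399, promoter) held 17 CpGs, more than either of these, and was methylated at 85.1%, 98.7%, 93.0% and 89.7%. A CpG-dense bin was thus almost free of methylation at Cebpa and highly methylated, at 85.1% or more, at the germline gene Ddx4, in every sample. The Dazl bin (chr17:50293500-50293599, promoter), with 11 CpGs, stood at 100% in 3 samples and at 76% in sample 14.

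At the imprinted genes the samples were far apart. The Snrpn bin (chr7:60005100-60005199, promoter) had 8 CpGs and values of 92.2%, 0%, 64.6% and 33.1%, and the Peg3 bin (chr7:6730300-6730399, promoter) had 11 CpGs and values of 39.5%, 0%, 52.2% and 61.5%. Sample 02 was at 0% in both. The Zap70 bin (chr1:36764500-36764599, promoter) had 3 CpGs and stood at 100% in samples 01 and 02, 49.2% in sample 13 and 63.5% in sample 14. The Zfx bin (chrX:94123700-94123799, promoter) had 3 CpGs and was methylated at 53.2%, 18.3%, 34.5% and 26.7%, above the Cebpa and Kit bins and below the Dazl and Ddx4 bins in each sample.

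Over all usable bins the mean methylation was 60.1% in sample 01, 58.6% in sample 02, 58.2% in sample 13 and 58.5% in sample 14 (58.8% ± 0.87, SD, n = 4). Sample 01 was the highest and the other 3 lay within 0.345 points of each other. Methylation was bimodal: averaged over the 4 samples, 28.9% of usable bins were under 20%, 47.6% were over 80% and 23.4% lay from 20% to 80%. Within a single sample, 14.9% to 21.2% of usable bins stood at exactly 0 and 27.2% to 33.7% at exactly 100. Sample 13 had the fewest bins at either end. Across bins, the 6 pairs of samples correlated with Pearson's r from 0.76 to 0.79, a description over bins that share their CpG content.

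**Figure D1:**
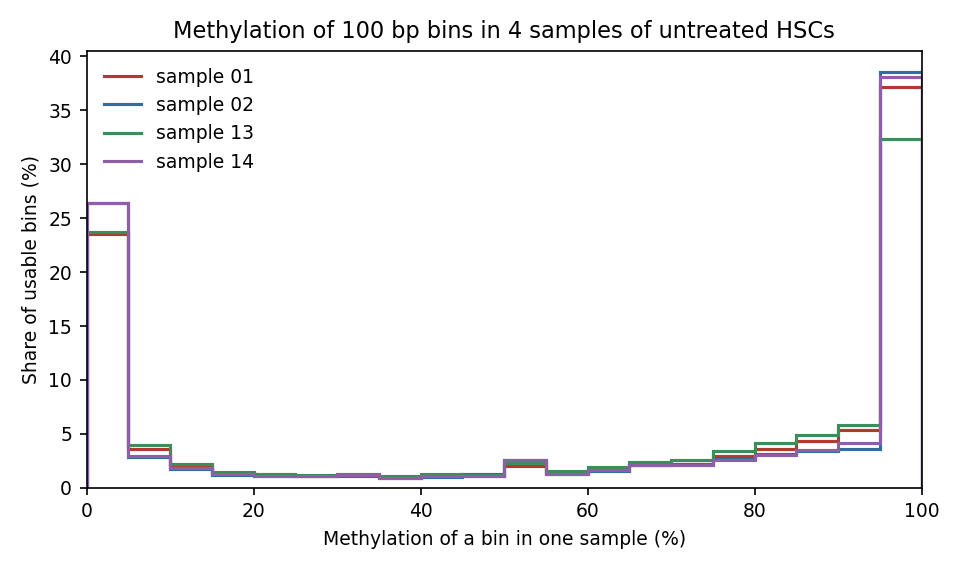
The horizontal axis is the methylation of a bin in 1 sample in steps of 5%, the vertical axis the share of the 276530 usable bins in each step, with 1 line per sample. All 4 samples have a peak at each end, and sample 13 has the lowest peak at the high end.

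Usable bins with a mean near the middle were mostly bins in which the samples disagreed. Where the mean was under 5%, the SD between samples averaged 2.84 points, and where it was from 40% to 60%, it averaged 33.4 points. A mean near 0 leaves little room for spread, so part of this contrast is set by the scale. Of the 64807 usable bins with a mean from 20% to 80%, 9.42% had all 4 samples within that range, and 36.8% had a sample at 0 together with a sample at 100. The rule for usable bins left out those with a repeated value between 0 and 100 but kept repeats at 0 or 100. It thus removed bins in which samples agreed exactly near the middle, and these shares are partly set by it. The share with all 4 samples inside the range was 6.52% in bins with 1 or 2 CpGs and 17.9% in bins with 6 or more. It was 25.6% (221 of 862) in the island-like promoter bins of the X chromosome and 11.4% (78 of 683) in those of autosomes outside the imprinted genes. In promoter bins of the imprinted list it was 13.1% (13 of 99), near the 12.1% of other autosomal promoter bins. The median number of CpGs was 10 in the island-like promoter bins of the X and 9 in those of autosomes. It was 6 in the promoter bins of the imprinted list and 3 in the other autosomal promoter bins. The part of CpG number in these shares was not tested, and the number of calls per bin is unknown. In a bulk sample, an intermediate value from a part of the cells cannot be told apart from one that comes from 1 of the 2 copies of a chromosome in every cell.

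Methylation differed strongly between genomic classes. The 8 classes were set by the middle of the bin, with promoters from 1 kb upstream to 100 bp downstream of a transcription start. In promoters, it was 13.8%, 13.6%, 13.3% and 13.7% in samples 01, 02, 13 and 14 (13.6% ± 0.21, n = 4), over 36799 usable bins. In intergenic DNA, it was 76.1%, 73.9%, 73.5% and 73.8% (74.3% ± 1.19), over 100833 bins. Promoters lay below intergenic DNA in all 4 samples, by 60.7 points on average (SD 1.04). As a difference of medians over bins, it was -91.7 points. With 4 samples the two-sided exact sign-flip test of a paired difference cannot go below p = 0.125, which is the p found here and for the 3 other paired differences below.

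The order of the classes was the same in all 4 samples. The 5′ UTRs were the least methylated class (9.76% ± 0.21), below promoters in every sample, and exons of non-coding RNA stood at 47.2% ± 0.89. Coding exons (57.3% ± 0.67) and the ends of transcripts, from 100 bp before to 1 kb after the end (60.1% ± 0.79), were neighbours whose values did not overlap between classes. Introns (63.4% ± 0.95) and 3′ UTRs (69.2% ± 0.51) followed, and 3′ UTRs ranged from 68.9% to 69.9% against 73.5% to 76.1% in intergenic DNA. Sample 01 had the highest mean in 7 of the 8 classes, the 5′ UTRs excepted, and in promoters all 4 samples lay within 0.491 points.

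**Figure D2:**
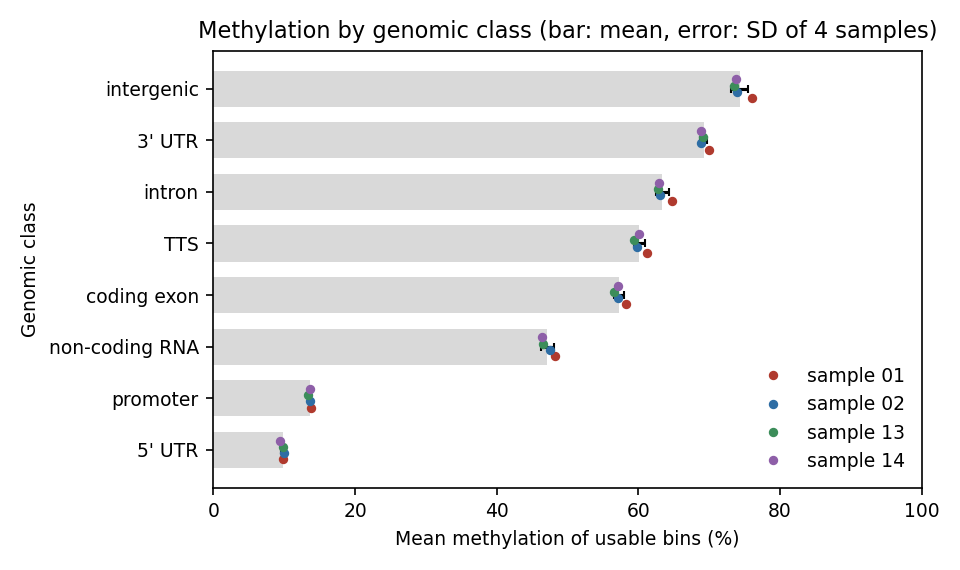
Each bar is the mean methylation of the usable bins of 1 genomic class over the 4 samples in percent, the error bar is the SD and each point is a sample. The 5′ UTRs and promoters lie under 14% in every sample, whereas intergenic DNA lies between 73.5% and 76.1%.

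Bins that did not vary were distributed along the same lines. At 0 in all 4 samples were 33.7% of deposited promoter bins and 29.5% of 5′ UTR bins, against 6.64% of intergenic bins. At 100 in all 4 samples were 9.92% of promoter bins and 58.9% of intergenic bins. With both kinds added, the mean of promoters was 18% and that of intergenic DNA 86.2%, and the mean of all classes was 77.8% ± 0.23.

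Island-like bins were lowly methylated in every class. A bin was called island-like when the 500 bp around it had a GC content of at least 55% and a ratio of observed to expected CpGs of at least 0.65. Island-like bins had a mean of 6.67% ± 0.11 (51398 bins) and all other bins 70.7% ± 1.07 (225132 bins). Within promoters the 2 kinds stood at 4.19% ± 0.07 and 29.2% ± 0.55, and 62.5% of usable promoter bins were island-like. In introns the values were 5.93% ± 0.13 and 71.1% ± 1.07, and in coding exons 13.4% ± 0.21 and 77.1% ± 0.92. Intergenic island-like bins stood at 14.8% ± 0.25, so island-like bins of coding exons and intergenic DNA lay above those of promoters.

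Away from islands, promoters still lay below every class other than the 5′ UTRs. The non-island values were 27.6% ± 0.44 in 5′ UTRs, 29.2% in promoters, 60.4% ± 1.05 in exons of non-coding RNA, and from 68.1% to 77.1% in the remaining classes.

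Methylation was higher in each successive one of 8 bands of distance from a transcription start, in all 4 samples. Within 250 bp it was 9.24%, 9.28%, 9.07% and 9.25% in samples 01, 02, 13 and 14 (9.21% ± 0.09, 33094 bins). It was 12.8% ± 0.16 from 250 to 500 bp, 23.5% ± 0.59 from 500 to 1000 bp, and 46.1% ± 0.65 from 1000 to 2000 bp. From 2000 to 5000 bp it reached 63.6% ± 0.94 and from 5000 to 20000 bp 73.8% ± 0.99, and the steepest part of the climb lay between 500 and 2000 bp. Beyond 50000 bp the samples stood at 81.9%, 79.5%, 79.1% and 79.3%. Within 1 kb the mean was 13.7% ± 0.22 and beyond 20 kb 78.5% ± 1.24, a difference of 64.8 points (SD 1.06) with the same sign in all 4 samples.

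The dip around the start was not symmetrical. The lowest step of 250 bp was the one just downstream of the start, with 8.93% ± 0.09 over 19724 bins. From the start to 1 kb downstream the mean was 12.3% ± 0.20, and over the kilobase upstream it was 16.4% ± 0.25. From 1 to 2 kb the values were 42.3% ± 0.61 downstream and 53.6% ± 0.78 upstream. Each downstream value lay under its upstream counterpart in all 4 samples. From 2 to 5 kb the sides differed less, with 63.0% ± 0.97 downstream and 64.5% ± 0.93 upstream. The dip was also seen in bins that were not island-like, which stood at 24.8% ± 0.32 within 250 bp and at 80.7% ± 1.29 beyond 50000 bp. Their lowest step was the one just upstream of the start, with 23.3%, against 26.1% in the step downstream.

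**Figure D3:**
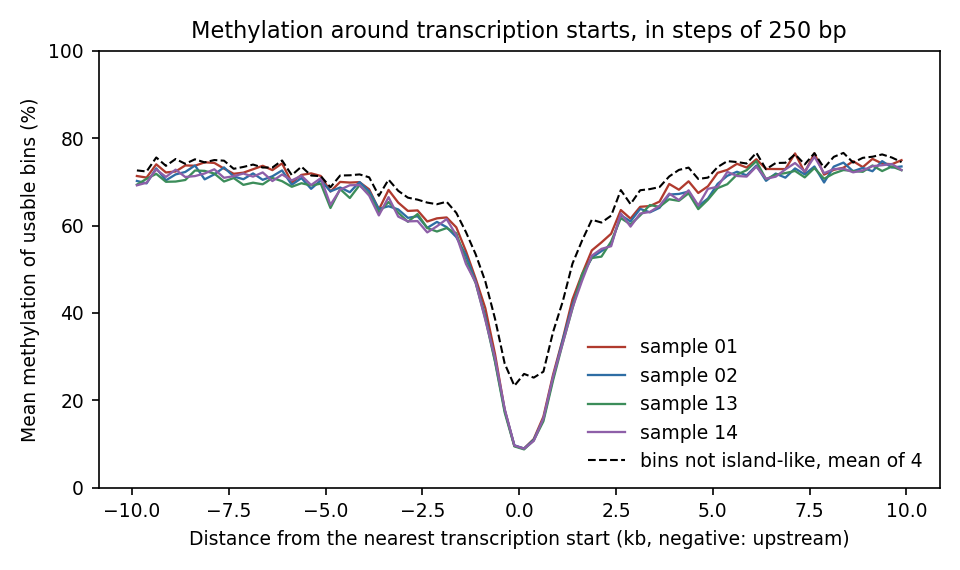
The horizontal axis is the distance from the nearest transcription start in kb, negative upstream, and the vertical axis the mean methylation of usable bins in steps of 250 bp, with 1 line per sample and a dashed line for bins that were not island-like. The 4 lines fall together to 8.93% just downstream of the start, and the dashed line has a shallower dip.

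Methylation was lower the more CpGs a bin held. Bins with 1 or 2 CpGs had a mean of 77.0%, 74.5%, 74.1% and 74.4% in samples 01, 02, 13 and 14. The mean was 67.4% ± 0.84 with 3 to 5 CpGs, 37.9% ± 0.28 with 6 to 8, 12.4% ± 0.17 with 9 to 11 and 4.85% ± 0.08 with 12 or more. Bins with 6 or more CpGs lay below those with 1 or 2 in all 4 samples, by 54.1 points on average (SD 1.20), and as a difference of medians over bins it was -91.9 points. The order was also present outside promoters, from 76.1% ± 1.36 at 1 or 2 CpGs to 6.20% ± 0.14 at 12 or more. The excess of sample 01 lay in CpG-poor bins: at 12 or more CpGs its mean was 4.83%, inside the range of the other samples.

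Repetitive DNA, taken as bins with over 50% of their bases soft-masked in the genome, was more methylated. It made up 13.3% of usable bins and had a mean of 83.3% ± 1.17, against 55.1% ± 0.83 in other bins. In intergenic DNA the values were 85.9% ± 1.21 and 70.6% ± 1.19, and in promoters 37.3% ± 1.12 (1053 bins) and 12.9% ± 0.19. The MspI sequence CCGG, which reads the same on both strands, touched 93.5% of usable bins, whose mean was 58.6% ± 0.87. The bins without it had a mean of 62.4% ± 0.90.

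The X chromosome stood apart from the autosomes in its promoters. Within 1 kb of a start, X bins were methylated at 40.8%, 41.1%, 39.8% and 41.9% in samples 01, 02, 13 and 14, over 2237 bins. Autosomal bins there were at 13%, 12.8%, 12.5% and 12.7%, over 66031 bins, and single autosomes ranged from 11.1% to 15.5%. The X was higher in all 4 samples, by 28.1 points on average (SD 0.82). In island-like promoter bins the X mean was 34.8% ± 1.14 (1061 bins) and the autosomal mean 3.73% ± 0.06 (41956 bins). Beyond 20 kb of a start the 2 were closer, with 82.0% ± 1.01 on the X and 78.3% ± 1.25 on autosomes.

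Xist, the RNA that coats the inactive X, had no deposited bin within 1 kb of its start. Of 186 X genes with an island-like promoter and at least 3 usable bins, the median promoter level was 36.5%, and 8 (4.30%) lay under 20%. These 8 were named after their values were seen. Ddx3x, an RNA helicase, stood at 2.67%, 0.317%, 0.243% and 0% in the 4 samples, and Kdm6a, a histone H3K27 demethylase, at 3.16%, 4.79%, 3.65% and 4.53%. Both are known to escape X inactivation in mice. Bcor, a transcriptional corepressor, had a mean of 11.1% ± 3.42 over 18 bins, and the others were Cldn34c1 (6.64%), Gm14634 (12.8%), Med14 (18.2%), Wdr44 (18.6%) and Jpx (18.8%). Kdm5c (4.02% ± 4.60) and Eif2s3x (7.02% ± 7.82), also known escape genes, were as low, but island-like bins were not the majority of their usable bins.

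**Figure D4:**
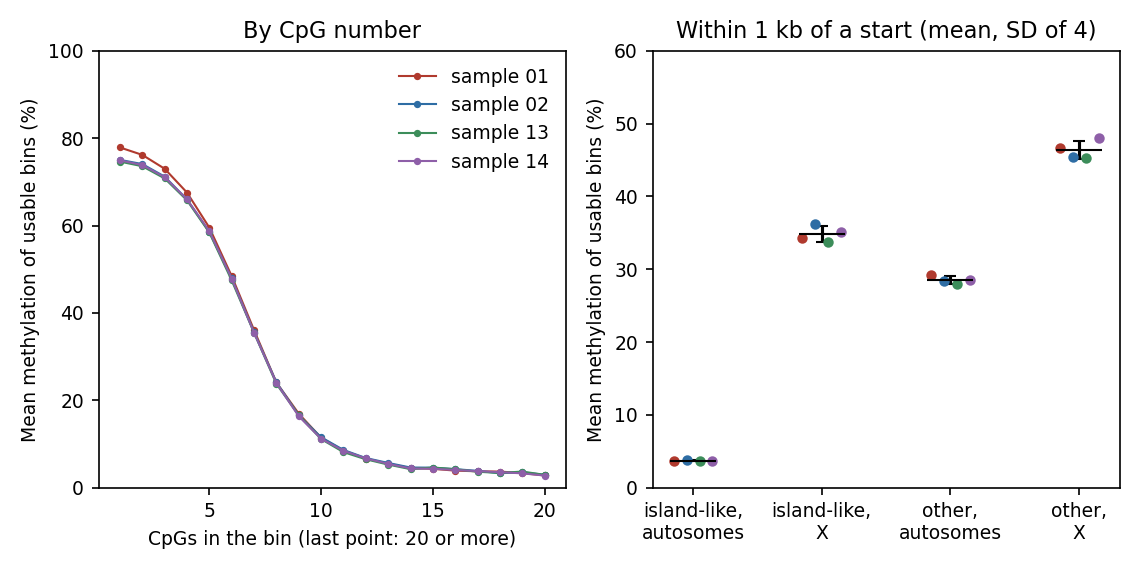
The left panel plots mean methylation of usable bins in percent against the number of CpGs in the bin, 1 line per sample, and the right panel the means of bins within 1 kb of a start, with points for samples and bars for the mean and SD of 4. Methylation is lower at higher CpG numbers, and island-like promoter bins lie near 4% on autosomes and near 35% on the X.

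For single genes, the promoter level is the mean over the usable bins within 1 kb on either side of any of the gene's curated starts. At least 1 such bin was found for 16771 genes, whose median promoter level was 5.21%. Of these, 74.2% lay under 20% and 14% over 50%, and these are the shares against which the lists below are read. The second share depends on the bins: it was 23.7% with the bins at 0 or 100 throughout added, 24.5% over all deposited bins and 5.08% among genes with at least 3 usable bins. Genes with mostly island-like promoter bins (9411) had a median of 3.21% and the others (7360) 20.4%. Protein-coding genes had a median of 4.81% and long non-coding RNAs 9.59%. Gene bodies were much higher, with a median of 81.6% over 12073 genes. The lists are described by their counts and medians only, with no test.

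Promoters of the HSC list were almost all lowly methylated. Of 36 genes of stem cell regulators and surface markers, 31 had a usable promoter bin, with a median of 3.5%. There were 29 under 20% and none over 50%, against 74.2% and 14% of all genes, and 16 of the 31 were mostly island-like. The medians in samples 01, 02, 13 and 14 were 2.07%, 3.46%, 2.35% and 3.94%. Regulators of transcription (23 with values) had a median of 4.08%, and the surface receptors and other members (8) 2.68%.

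Among the markers used in the sort, Kit, the stem cell factor receptor, stood at 0%, 0.0991%, 6.06% and 5.36%, over 3 usable bins and 7 further bins at 0 in all samples. Cd34, a sialomucin of progenitors that the sort excluded, stood at 0.272%, 0.883%, 0.174% and 0% in its single usable bin. Flt3, the receptor known as Flk2 and also absent from the sorted surface, stood at 6.91%, 0%, 1.98% and 0.347%. All 3 promoters were low, although the sort required the product of Kit and excluded those of Cd34 and Flt3. Of the T cell receptor chains in the CD3 complex, which the sort also excluded, Cd3d had 2 promoter bins and Cd3g 1, each at 100 in all samples and so not usable. Slamf1, which encodes CD150, had no usable promoter bin but 2 bins at 0 throughout, and Ly6a, which encodes Sca1, had no deposited promoter bin.

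The lowest HSC genes with at least 3 usable bins were Mllt3, a reader of acetylated histones (1.89% ± 1.64), and Meis1, a homeobox partner of the HOX proteins (2.01% ± 1.30). The highest was Zfx, a zinc finger factor needed for HSC renewal, with 35.1%, 48.6%, 39.4% and 41.6%. It is the X-linked member, and its level was close to the 40.9% of all X promoter bins. Hoxa9, a homeobox gene of stem and progenitor cells, stood at 6.67%, 55.4%, 14.4% and 5.18%, so its mean of 20.4% rested on sample 02. Robo4, a guidance receptor of HSCs and endothelium (19.6% ± 6.69), and Lmo2, a bridging protein of transcription factor complexes with TAL1 (12.5% ± 7.43), came next.

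The myeloid list held 2 kinds of promoter. Of 36 genes, 19 had a usable bin, with a median of 19.3%, and 10 lay under 20% and 5 over 50%. The median by sample was 16.2%, 16.3%, 10.8% and 12%. The 8 regulators of transcription with values had a median of 3.39% and the 11 genes of receptors, granule proteins and other effectors one of 41.3%. Under 20% were 6 of the 8 regulators and 4 of the 11 effectors, and 4 effectors lay over 50%. All 4 effectors over 50% (Fcgr3, Cd33, Ngp and Lcn2) rested on 1 or 2 usable bins. Among the effectors under 20%, Csf3r, Cd14 and Anpep did so too. Only 1 of the 11 effectors, against 6 of the regulators, was mostly island-like. With only 19 of 36 genes measured, the median of the list turned on which bins were used: among the 10 genes with at least 3 usable bins it was 4.10%.

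Cebpa, the factor that opens the granulocyte programme, stood at 1.28%, 2.96%, 2.92% and 2.00% over 10 usable bins. Cebpe, which acts later in granulocyte maturation, stood at 47.2%, 33.1%, 49.3% and 71.3%. Both genes were named by their rank in the list, so the gap between them follows from that choice. Irf8, a factor of monocytes and dendritic cells, stood between these at 23.1% ± 5.15. Csf2ra, a subunit of the GM-CSF receptor, stood at 56.7%, 39.4%, 36.4% and 32.7%, and Mmp9, a neutrophil gelatinase, at 19.3% ± 2.95. Spi1, which encodes PU.1, had no usable bin but 11 promoter bins at 0 and 1 at 100 throughout.

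Lymphoid promoters of regulators were low and those of effectors mostly high. Of 41 genes, 25 had a usable bin, with a median of 4.06%, 17 under 20% and 7 over 50%. The median was 8.51% with the bins at 0 or 100 throughout added and 16.8% over all deposited bins. The 15 regulators of transcription with values had a median of 2.71% and none above 16%, while the 10 receptors and other effectors had a median of 76.3%, with 7 of the 10 over 50%. The medians of the effectors in samples 01, 02, 13 and 14 were 76.9%, 72.3%, 69.2% and 76.1%, all far above the highest regulator. Of the regulators 12 were mostly island-like, and of the effectors 2.

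Ikzf1, which encodes Ikaros and is needed for lymphoid priming, stood at 1.81%, 3.11%, 0.375% and 1.55% over 10 bins. Eomes, a T-box factor of T and NK cells, was as low (1.36% ± 0.71), and Tcf7, a factor of early T cells, was the highest regulator (16% ± 7.28). Rag1, the recombinase of antigen receptor genes, stood at 96.2%, 59.1%, 71.8% and 74.4%. Zap70, the kinase of T cell receptor signalling, stood at 79.8%, 79.3%, 63.7% and 77.9% over 8 usable bins, beside 10 bins at 100 throughout. Cd79b, a chain of the B cell receptor, was lower, at 27.1%, 44.5%, 33.3% and 48.6%. These genes were named by their rank in the list, so the gap between the effectors and Ikzf1 follows from that choice. The effectors Flt3 (2.31%) and Thy1 (0.281%, 1 usable bin) lay within the range of the regulators.

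Imprinted genes were the list with the most intermediate promoters. Of 48 genes, 42 had a usable bin, with a median of 42.6%, and 23 lay from 20% to 80%, as did 17.2% of all genes. There were 15 over 50% and 17 under 20%. The median by sample was 35.8%, 33%, 29.4% and 33.6%, each below the median of the gene means. The 17 genes listed as carrying the parental mark at their start had a median of 51.0%, and the 25 others one of 11.5%. The 25 may also include genes with such a mark. Of them, 14 lay under 20% and 11 from 20% to 80%, among these H19 (56.7%) and Igf2r (53.8%). Peg3 and Usp29 share their promoter bins, as do Peg10 and Sgce, and the first of each pair is counted among the 17 and the second among the 25, so the same bins stand on both sides.

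Snrpn, the small ribonucleoprotein gene of the Prader-Willi region, stood at 78.5%, 32.7%, 59.4% and 26.7% over 7 bins, around a mean of 49.3%. Peg3, a zinc finger gene expressed from the paternal copy, stood at 37.0%, 33.3%, 66.6% and 72.5%. The order of the samples thus differed between these genes, sample 01 being the highest at Snrpn and among the lower pair at Peg3. Mest, a paternally expressed hydrolase, ranged from 23.8% in sample 02 to 96.8% in sample 14, with a mean of 67.6% ± 31. H19, the maternally expressed non-coding RNA, stood at 31.9%, 79.4%, 45.6% and 70.0% over 2 bins.

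The highest imprinted promoters with at least 3 usable bins were Mcts2, a retrogene inside H13 (93.1% ± 7.05), Slc38a4, an amino acid transporter (71.6% ± 19.2), Plagl1, a zinc finger factor (69.1% ± 14.7), and Meg3, a non-coding RNA (68.0% ± 7.68). The lowest were Copg2, a coatomer subunit beside Mest (1.21% ± 1.11), and Trappc9, the host of Peg13 (2.57% ± 1.88). Kcnq1ot1, a non-coding RNA whose start lies in a region methylated on the maternal copy, was listed at 0% in 3 samples and at 6.57% in sample 02, from 2 usable bins. Among the genes with the mark at the start, Grb10 was also low (3.43% ± 3.47), and both were among the 3 of the 17 under 20%. The Grb10 level pools 8 usable bins around any of its curated starts. It leaves out 3 bins at 0 and 2 at 100 in all samples, so it need not describe the marked start alone. The range between samples had a median of 30.6 points in the 17 genes, against 7.93 points in all genes.

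Germline promoters were the most methylated list. Of 41 genes, 30 had a usable bin, with a median of 87.8%, and 26 lay over 50% against 14% of all genes. The medians in samples 01, 02, 13 and 14 were 91.9%, 89.2%, 88.2% and 83.7%. Only 11 of the 30 were mostly island-like, but these had a median of 86.8%, whereas island-like promoters of all genes had a median of 3.21%. The rest had a median of 88.7%, so germline promoters were high whether island-like or not.

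Dazl, an RNA-binding protein of germ cells, stood at 73.3%, 73.6%, 74.2% and 69.9%, and Ddx4, the germ cell helicase Vasa, at 88.0%, 74.7%, 94.4% and 84.9%. Mael, which acts in transposon silencing, stood at 84.0%, 85.9%, 89.4% and 88.0%. The highest with at least 3 usable bins were Hormad1 (97% ± 2.73), Sycp1 (96.8% ± 1.38) and Sycp2 (96.0% ± 2.71), which build the meiotic chromosome axis and synaptonemal complex, and Dmrtb1, a regulator of the entry into meiosis (92.7% ± 10.5). The lowest value of these 7 genes in any sample was 69.9%, that of Dazl in sample 14. The list had 4 members under 20%, among them the meiotic genes Mei4 (3.56% ± 6.21) and Stag3 (7.05% ± 3.96), with Prm1 and Smc1b, each from 1 or 2 bins, beside them.

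Of the comparison lists, housekeeping genes were as low as the HSC list. All 20 housekeeping genes had a usable bin, with a median of 3.43% and 18 under 20%. The erythroid and megakaryocyte list had values for 5 of 15 genes, from Tfrc, the transferrin receptor (1.14% ± 1.87), to Epor, the erythropoietin receptor, at 32.6%, 46.9%, 82.8% and 33.3%. Of 21 genes of endothelium, stroma and other tissues, 12 had a value, with a median of 22.6%, 6 under 20% and 4 over 80%, against 8.60% of all genes over 80%. The lowest and highest with at least 3 bins were Kdr, a VEGF receptor (4.08% ± 3.08), and Pdgfrb, a receptor of mesenchymal cells, which stood at 40.2%, 36.0%, 0% and 59.1%.

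**Figure D5:**
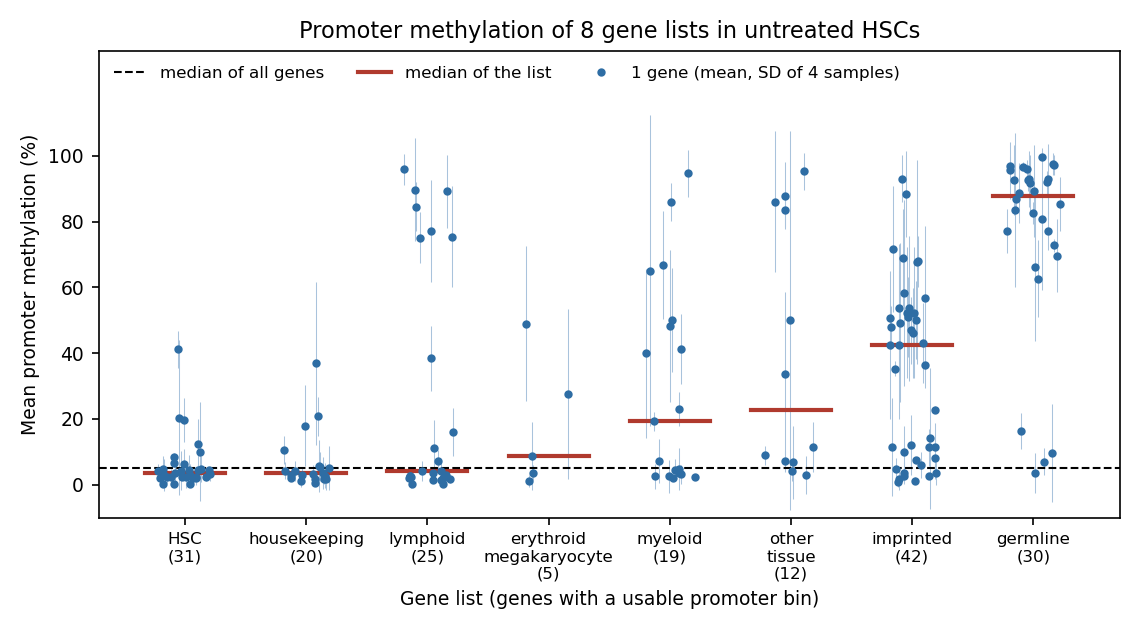
Each point is the mean promoter methylation of 1 gene in percent with the SD of the 4 samples, grouped by list, with the number of genes below its name, the median of the list as a red bar and the median of all genes as a dashed line. HSC and housekeeping genes lie mostly at the bottom, and lymphoid and myeloid genes are split. Imprinted genes run from the bottom to the middle, with 2 of 42 over 80%, and germline genes lie mostly at the top.

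The labels number the samples in 2 runs, 01 with 02 and 13 with 14, without saying what the runs are. The mean over usable bins was 59.3% in the first pair and 58.3% in the second, a difference of 1.01 points. The exact permutation test gave p = 0.333, the smallest that 2 samples against 2 allow, and without sample 01 the difference was 0.226 points.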

How the data were processed

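RRBS of sorted HSCs was analysed in the 4 samples labelled 0x. Per the labels and the study's methods, the authors used Trim Galore 0.4.3 for trimming and Bismark 0.23.1 for alignment to mm10, then methylKit 1.22.0 with a minimum of 10 reads, and summarised CpGs in 100 bp bins. The deposited values are percent methylation per bin and sample, with missing bins filled by the authors with a group average and no mark of which were filled. Where 2 samples shared a value between 0 and 100 (47866 bins), it lay within the range of the other 2 in 96.8% of bins but equalled their plain mean in 2.14%. A fill in a single sample therefore cannot be recognised, and usable bins may hold some.

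A bin label was taken as its first base, since 99.98% of bins then hold a CpG. Bins were annotated with 45657 curated RefSeq transcripts of 26089 genes (GRCm38.p6), in classes ordered like those of Homer. Paired differences were tested by two-sided exact sign flips. The 8 gene lists and all rules were chosen with earlier results of these data known, and the split of lists by role with these values seen. Genes were named as the 4 highest and 2 lowest of each of 5 lists, and the highest and lowest of each of 3 comparison lists, among members with at least 3 usable bins, plus 14 fixed genes. Some genes that this rule picks are not reported here. Other genes are said to be chosen after their values were seen or are given to describe a count. The work was done in Python 3.11.15 with matplotlib 3.10.9, pandas 2.3.3 and numpy 2.4.6, and the code was tested on simulated data. Other settings were tried for each result, and 2 of them (predicted transcripts added, X left out of the lists) were chosen after the data were seen.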

Additional observations from a re-analysis of the deposited data

Results flagged for a closer look

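In 9 of 69 sets of 4 values, 1 sample lay far from the other 3, by the gap to its neighbour relative to the whole range. Chance alone marks about 1 set in 20 where values are normally distributed, and the sets overlap. That share does not hold for promoters with samples at 0, such as Kcnq1ot1, Mei4 and Tfrc below. Sample 01 was the high one in introns (64.8%), in intergenic DNA (76.1%), from 20000 to 50000 bp from a start (78.1%) and beyond 50000 bp (81.9%). Single promoters with 1 sample apart were Zap70 (sample 13 low, 63.7%), Dmrtb1 (sample 14 low, 76.9%), Kcnq1ot1 (sample 02 high, 6.57%), Mei4 (sample 14 high, 12.8%) and Tfrc (sample 13 high, 3.91%).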

How the results depend on the processing

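The 4 paired differences and the difference between the 2 runs of labels kept their sign in all 47 values computed under alternatives, but not their size. As medians over bins, promoter minus intergenic was -91.7 points, CpG-rich minus CpG-poor -91.9, within 1 kb minus beyond 20 kb of a start -94.9 and X minus autosomal promoters 35.5. With bins at 0 or 100 throughout added, the first 3 were -68.2, -59.5 and -71.3. Of 59 values of the overall mean and the list medians, 40 moved by less than the spread between samples. The overall mean was 77.8% with bins at 0 or 100 throughout added, 76.3% over all deposited bins and 77.8% as a median over bins. With the constant bins added, the list medians were 1.55% (HSC), 38.6% (myeloid), 8.51% (lymphoid), 39.5% (imprinted) and 94.9% (germline), against 8.42% for all genes. Over all deposited bins they were 2.37%, 45.0%, 16.8% and 94.5% for HSC, myeloid, lymphoid and germline, against 11.8% for all genes. Within 500 bp of a start, the myeloid median was 7.39%, the imprinted 28.1% and the germline 91.7%. With at least 3 usable bins per gene, the myeloid median was 4.10% and the germline 84.1%. Leaving out 1 sample in turn, the imprinted median ranged from 35.2% (without sample 02) to 42.5%. The HSC, myeloid, lymphoid and imprinted medians thus moved by over 1.5 times with the choice of bins or window, and the cause was not tested. Leaving out bins with a value equal to the mean of the other 3 removed only 516 usable bins (0.187%). It moved neither the overall mean nor a list median beyond the spread between samples. Shared values rarely equalled the plain mean of the other samples (2.14% of bins), so this setting cannot find the authors' fills and says nothing about their effect. No pairing of samples was possible because each replicate number is unique in the series, and only 1 group was described. The paired differences tested are between bins of the same sample. Depth is unknown, so no counting error can be given.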

Other observations

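Outside the lists, island-like autosomal promoters with high methylation were rare. Of 7706 such promoters with at least 3 usable bins, 39 (0.506%) had a mean over 50%, of which 8 were on the germline list, 5 on the imprinted list and 26 on none. Of the 26, 8 are named here, chosen after their values were seen, and the other members were not classed by function. They are Hsf5 (96.5% ± 2.76), the helicase gene D1Pas1 (95.8% ± 2.34), Spo11, whose product makes the breaks of meiotic recombination (94.1% ± 3.54), Adad1 (84.1% ± 7.12), Boll, a relative of Dazl (51.7% ± 7.79), Agap2 (80.9% ± 5.87), Sfi1 (89.5% ± 0.76) and Hymai (69.1%), which shares the promoter bins of the imprinted gene Plagl1.

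At the other end, runs of consecutive bins all under 10%, with gaps of at most 1000 bp, were counted over usable bins and bins constant at 0 or 100, chromosome 18 left out. There were 11399 runs of at least 5 bins, with a median length of 1100 bp, and 19 over 5000 bp. The longest covered 9100 bp in Tnrc18 (60 bins, 1.24%, 1.30%, 1.56% and 0.944% in samples 01, 02, 13 and 14). Among the 19 were runs over Bcl11a (6100 bp, mean 1.08%), Ccnd1 (6100 bp, 0.765%), Hlf (5400 bp, 0.383%), Myc (5300 bp, 0.775%) and Hoxa7 (5300 bp, 0.762%). These genes were chosen after their values were seen, and CpGs in the gaps are not part of the runs.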
